A study of Mus musculus with 12 samples.

Results

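Succinyl-CoA and succinate are consecutive intermediates of the tricarboxylic acid (TCA) cycle, and 10 nuclear genes whose products make or use them in heart mitochondria were followed in total RNA of mouse hearts. The genes are Suclg1, Suclg2 and Sucla2 of succinyl-CoA synthetase, Ogdh and Dlst of the oxoglutarate dehydrogenase complex, Oxct1 of ketone body use, and Sdha, Sdhb, Sdhc and Sdhd of succinate dehydrogenase. They are 10 of the 54751 features in the deposited table, and all 10 lay among the 18250 features tested, whose mean reached 10 normalised counts or more, a normalised count being the reads on a gene divided by a scaling factor of its library. The genes were chosen by their function, selected on values of control against knockout libraries that were already known, so that contrast is given for them as a description and no value of it stands as independent support.

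Oxoglutarate dehydrogenase turns 2-oxoglutarate into succinyl-CoA, with Ogdh as its decarboxylating E1 subunit and Dlst as its succinyl-transferring E2 core. Succinyl-CoA synthetase then splits succinyl-CoA into succinate and CoA and keeps the energy as a nucleoside triphosphate. It pairs the shared alpha subunit Suclg1 with 1 of 2 beta subunits, Suclg2, which forms GTP, or Sucla2, which forms ATP and is the main partner in muscle. Loss of SUCLA2 or SUCLG1 function in humans is known for depletion of mitochondrial DNA (mtDNA). Succinate dehydrogenase, complex II of the respiratory chain, oxidises succinate to fumarate and is encoded by nuclear genes alone. Oxct1 passes CoA from succinyl-CoA to acetoacetate, the step by which the heart burns ketone bodies.

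The hearts came from C57BL/6N mice aged 52 weeks. The 3 control libraries have the genotype Rexo2loxP/loxP, with Rexo2 alleles that carry loxP sites, and the genotype of the 3 knockout libraries is written as Rexo2loxP/loxPloxP/loxP, +/Ckmm. Both groups thus carry loxP alleles. As background, Cre placed under the muscle creatine kinase (Ckmm) promoter acts in heart and skeletal muscle fibres, and with no group that has the Ckmm allele alone, its own effect and that of losing Rexo2 cannot be told apart. Libraries are named here by the group and number of their column, and since no label ties a library to its own animal, the spread between them may be partly technical. In bulk tissue, fewer cells of a type and less RNA per cell cannot be told apart.

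Depth lay between 41979163 and 50764023 reads per library. Rexo2, an oligoribonuclease of mitochondria and cytosol, was measured at 330, 368 and 293 normalised counts in the controls (490, 498, 502, the order kept throughout) and at 274, 288 and 314 in the knockout libraries (492, 499, 501). These groups overlapped, and a count over the whole gene does not check a deletion of unknown exons, so knockout refers to the label throughout. All 8 cardiomyocyte markers were measured, with summed levels from 539482 to 583633 in control and from 527212 to 561919 in knockout libraries. Myh6 carried much of that sum, with group means of 274245 and 268868. Of the 8 markers, 1 had a log2 fold change above 0, and the median was -0.02. Mb was lower in the knockout libraries without overlap, at -0.10, as were 4.9% of all tested features. Features of mtDNA took 71.5% to 71.9% of normalised counts in knockout libraries and less in each control, the lowest being 69.4% in control 490. The summed skeletal muscle markers also did not overlap, at 15709 to 17056 in control and 18221 to 19481 in knockout libraries, of which Acta1 and Ckm, both also expressed in heart, were the 2 of 7 above the filter. Acta1 was at 0.64 on the log2 scale without overlap and Ckm at 0.04 with overlap. Below the filter, Myh2 was higher in the knockout libraries without overlap, at 0.894, 0.940 and 2.04 against 3.22, 3.79 and 3.38 normalised counts. Myh1, Tnni2 and Tnnt3 overlapped, with at most 11.8 normalised counts in a library, and Myh4 was at 0 in every library. Summed markers of fibroblasts, endothelium, smooth muscle, macrophages, lymphocytes, erythroid cells, adipocytes and atrium overlapped between the groups. Among their tested markers, Adgre1 of macrophages was higher without overlap at 0.35, and Pdgfra of fibroblasts lower without overlap at -0.08. The part of these differences in the values below was not tested.

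The promoters of the synthetase genes are shown because the data separate the 3 subunits, with Suclg2 and Sucla2 lower in every knockout library than in any control library and Suclg1 not. Each run is the 250 bases before the annotated start in RefSeq, build GRCm38.p6, read 5′ to 3′ on the strand of the gene. The start listed for Suclg2 lies a few bases inside the outer end of the gene, so its run overlaps that end of the gene span. The run of Suclg1 lies at chr6:73248255-73248504 on the plus strand, Suclg2 at chr6:95718847-95719096 on the minus strand and Sucla2 at chr14:73552536-73552785 on the plus strand. Capitals mark every match, on either strand, to the motifs searched.
Suclg1: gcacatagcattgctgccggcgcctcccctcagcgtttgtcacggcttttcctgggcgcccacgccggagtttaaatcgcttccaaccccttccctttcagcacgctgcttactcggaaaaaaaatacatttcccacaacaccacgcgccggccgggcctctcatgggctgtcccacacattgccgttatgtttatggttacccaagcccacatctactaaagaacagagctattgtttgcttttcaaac
Suclg2: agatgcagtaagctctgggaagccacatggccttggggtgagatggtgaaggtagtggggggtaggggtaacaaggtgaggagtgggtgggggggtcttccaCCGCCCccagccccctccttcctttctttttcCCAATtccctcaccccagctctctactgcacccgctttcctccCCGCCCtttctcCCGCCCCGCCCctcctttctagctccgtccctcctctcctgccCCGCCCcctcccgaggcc
Sucla2: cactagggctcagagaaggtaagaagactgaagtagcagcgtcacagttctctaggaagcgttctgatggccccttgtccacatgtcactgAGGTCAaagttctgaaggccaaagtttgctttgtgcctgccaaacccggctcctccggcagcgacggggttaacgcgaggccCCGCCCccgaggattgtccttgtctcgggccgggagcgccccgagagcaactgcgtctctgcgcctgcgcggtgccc

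In these 250 bases the GC content was 53.2% for Suclg1, 64.4% for Suclg2 and 61.2% for Sucla2. The motifs were the nuclear receptor core AGGTCA, its extended form AAGGTCA bound by estrogen-related receptors, the NRF1 core GCATGCGC, the ETS core CCGGAAG, the SP1 box GGGCGG, the YY1 core AAGATGG, the CCAAT box CCAAT and the E box CACGTG. A match to AAGGTCA is also a match to AGGTCA. Over 300 bases, from 250 before to 50 after the start, Suclg2 held 7 SP1 boxes, of which 2 share a base, and 1 CCAAT box. Sucla2 held 1 SP1 box and 1 AGGTCA, and Suclg1 held no match. An SP1 box was found in 35.7% of all 32851 promoters of this length, a CCAAT box in 37.4%, AGGTCA in 16.3%, an ETS core in 8.86%, an E box in 7.15%, a YY1 core in 6.34%, AAGGTCA in 4.72% and an NRF1 core in 2.71%. Of the 10 genes, 9 matched the promoter table, the exception being Sdhc, and 6 of them had an SP1 box in at least 1 promoter, 4 a CCAAT box, 4 AGGTCA, 3 an ETS core, 2 an NRF1 core, 2 AAGGTCA and 1, Ogdh, an E box. Ogdh has 6 listed promoters and so more chances of a match. These matches describe letters only.

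The 2 beta subunits of succinyl-CoA synthetase were lower in the knockout libraries, and the alpha subunit was not. Suclg2 (ENSMUSG00000061838.7, chromosome 6, 95473009 to 95718858), the GTP-forming beta subunit, was measured at 1640, 1658 and 1441 normalised counts in the controls and at 1252, 1210 and 1210 in the knockout libraries. All 3 knockout libraries lay below the lowest control, control 502, and they were closer to each other than the controls were. The group means were 1580 ± 121 and 1224 ± 23.9 (SD, n = 3 each), so knockout stood at 77.5% of control. By limma on log2(normalised count + 1) the log2 fold change was -0.36 (SE 0.063), with a 95% interval from -0.50 to -0.23. Among the 2187 abundant features, whose mean reached 1000 or more, 8 had a fold change as low as that of Suclg2 or lower, itself included.

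Sucla2 (ENSMUSG00000022110.13, chromosome 14, 73552786 to 73596144), the ATP-forming beta subunit, was measured at 3883, 4008 and 3873 normalised counts in the controls and at 3406, 3301 and 3345 in the knockout libraries. The groups did not overlap, at 3921 ± 75.0 and 3350 ± 52.9 (SD, n = 3 each), and knockout stood at 85.4% of control. On the log2 scale the difference was -0.23 (SE 0.045), with a 95% interval from -0.32 to -0.13. Of the 2187 abundant features, 30 had a fold change as low or lower.

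Suclg1 (ENSMUSG00000052738.14, chromosome 6, 73248505 to 73276907), the alpha subunit that both enzymes need, was measured at 1448, 1326 and 1251 normalised counts in the controls and at 1447, 1290 and 1389 in the knockout libraries. The groups overlapped across nearly their whole range. The log2 fold change was 0.04 with a 95% interval from -0.11 to 0.18, which leaves room for a level between 92.8% and 113% of control.

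**Figure D1:**
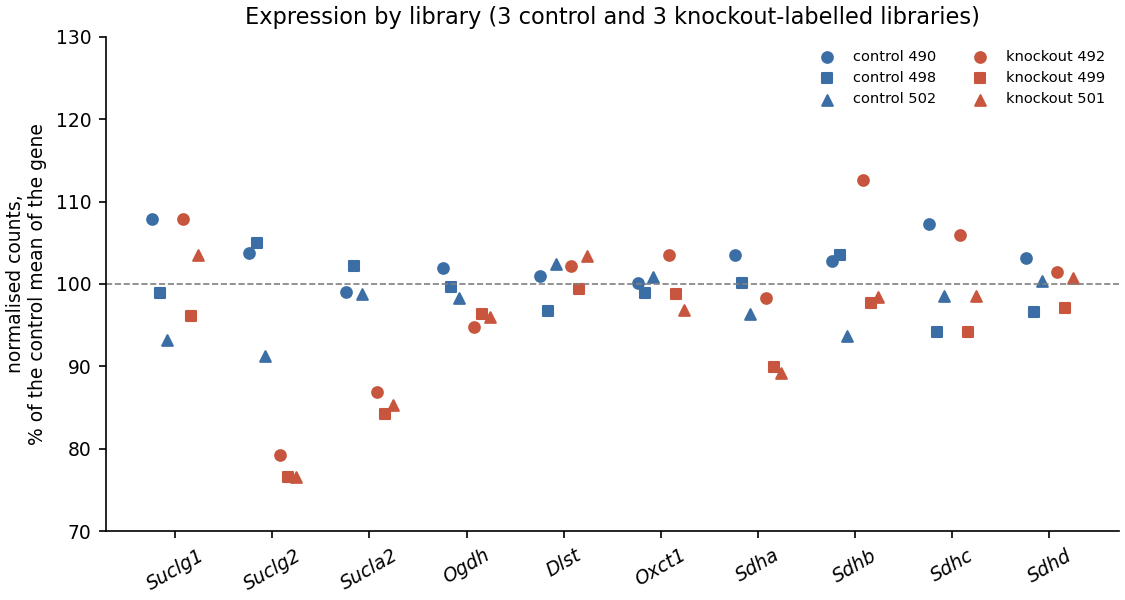
Normalised counts of each gene in each library, as a percentage of the control mean of that gene (vertical axis, not starting at 0). Blue points are the 3 control libraries and red points the 3 knockout libraries, with 1 marker shape per library. The red points of Suclg2 lie between 76.6% and 79.2% and those of Sucla2 between 84.2% and 86.9%, all below the blue points, while those of Suclg1 lie between 96.1% and 108% among the blue ones.

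Ratios between subunits within a library do not depend on how libraries were scaled, and gene length cancels when the same ratio is compared between libraries. The ratio of Suclg2 to Suclg1 counts was 1.13, 1.25 and 1.15 in the controls and 0.865, 0.938 and 0.872 in the knockout libraries. The log2 difference, knockout minus control, was -0.40, without overlap. The ratio of Sucla2 to Suclg1 was 2.68, 3.02 and 3.10 in the controls and 2.35, 2.56 and 2.41 in the knockout libraries, a log2 difference of -0.26, also without overlap. These ratios restate the values of the same 3 genes without the scaling of libraries, and they are no second line of support.

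Suclg2 was lower by more than Sucla2, but 1 control came close to the knockout libraries in their ratio. The ratio of Suclg2 to Sucla2 counts was 0.422 and 0.414 in control 490 and 498, 0.372 in control 502, and 0.368, 0.367 and 0.362 in the knockout libraries. The log2 difference was -0.14. It ran from -0.19 without control 502 to -0.10 without control 490.

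**Figure D2:**
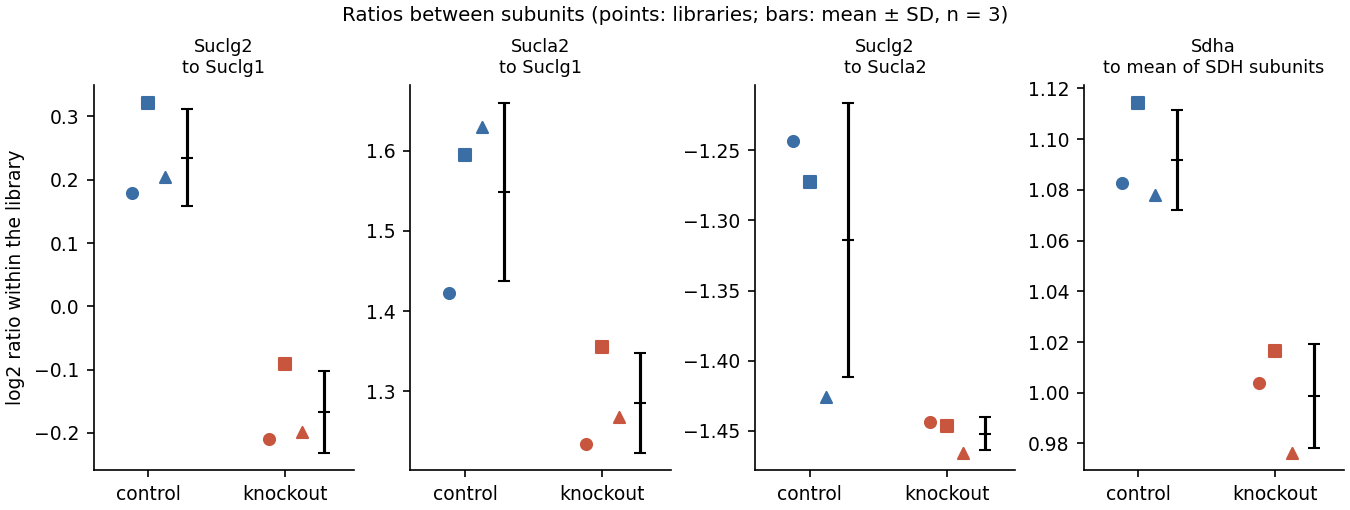
Log2 ratios of normalised counts within each library (vertical axes, each on its own scale), for 3 pairs of synthetase subunits and for Sdha against the mean log2 level of the 4 succinate dehydrogenase subunits. Points are libraries, blue for control and red for knockout, and bars give the mean ± SD (n = 3); in each panel the red points lie below the blue ones, narrowly so for Suclg2 to Sucla2.

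The oxoglutarate dehydrogenase subunits, which supply succinyl-CoA, differed little. Ogdh (ENSMUSG00000020456.17, chromosome 11, 6291597 to 6359094) was measured at 22263, 21760 and 21460 normalised counts in the controls and at 20689, 21046 and 20958 in the knockout libraries. The groups did not overlap, with knockout at 95.7% of control, while the SD of the controls was 1.86% of their mean (n = 3). The log2 fold change was -0.06 with a 95% interval from -0.15 to 0.03, and with libraries scaled to equal totals over features outside mtDNA it was -0.04 and the groups overlapped.

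Dlst (ENSMUSG00000004789.10, chromosome 12, 85110822 to 85134091) was measured at 6423, 6155 and 6515 normalised counts in the controls and at 6502, 6328 and 6584 in the knockout libraries. The groups overlapped, with a log2 fold change of 0.02 and a 95% interval from -0.07 to 0.12. Within libraries the log2 ratio of Dlst to Ogdh differed by 0.09 between the groups, with overlap.

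Dld, the E3 subunit that the oxoglutarate complex shares with pyruvate dehydrogenase, was measured at 2455, 2557 and 2549 normalised counts in the controls and at 2836, 2730 and 2562 in the knockout libraries. Each knockout library was higher than each control, the closest pair being knockout 501 and control 498, at 0.10 on the log2 scale (SE 0.052). Pdha1, the E1 alpha subunit of pyruvate dehydrogenase, went the other way at -0.33, so the subunits of these related complexes did not share 1 direction. Ogdhl, the Ogdh paralog, stood at -0.03 with overlap.

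Oxct1 (ENSMUSG00000022186.14, chromosome 15, 4026428 to 4155344), which spends succinyl-CoA on ketone bodies, was measured at 11636, 11496 and 11721 normalised counts in the controls and at 12028, 11477 and 11250 in the knockout libraries. The groups overlapped, and the knockout libraries spread wider (SD 400.4) than the controls (SD 114, n = 3 each). The log2 fold change was -0.0046 with a 95% interval from -0.10 to 0.09. Without knockout 492, the highest library, the groups did not overlap, as for 10.8% of tested features that were then lower, and the log2 fold change was -0.03. Bdh1, which makes acetoacetate from hydroxybutyrate, was at 0.23 with overlapping groups, and Acat1, which splits acetoacetyl-CoA after the Oxct1 step, at 0.01.

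Within succinate dehydrogenase, the flavoprotein subunit had the lowest fold change, though its groups overlapped. Sdha (ENSMUSG00000021577.14, chromosome 13, 74322255 to 74350240), which holds the FAD and the succinate site, was measured at 9672, 9349 and 8995 normalised counts in the controls and at 9181, 8393 and 8332 in the knockout libraries. Knockout 492 lay within the control range and knockout 499 and 501 below it. The group means were 9339 ± 339 and 8635 ± 473 (SD, n = 3 each), or 92.5% of control, and the log2 fold change was -0.11 with a 95% interval from -0.22 to -0.01. For Sdha limma gave 0.9998 as adjusted p, and 127 of the 2187 abundant features had a fold change as low or lower.

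Sdhb (ENSMUSG00000009863.14, chromosome 4, 140961271 to 140979198), the iron-sulphur subunit, was measured at 2233, 2248 and 2035 normalised counts in the controls and at 2446, 2123 and 2137 in the knockout libraries. The highest value, in knockout 492, lay above every control, and the others fell inside the control range. Its log2 fold change was 0.04 with a 95% interval from -0.10 to 0.18.

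Sdhc (ENSMUSG00000058076.12, chromosome 1, 171129157 to 171150640) and Sdhd (ENSMUSG00000000171.5, chromosome 9, 50596340 to 50603849) anchor the complex in the inner membrane. Sdhc was measured at 3999, 3510 and 3676 normalised counts in the controls and at 3951, 3512 and 3674 in the knockout libraries. Sdhd was measured at 5031, 4711 and 4893 in the controls and at 4950, 4735 and 4914 in the knockout libraries. For both genes the groups covered nearly the same range. The log2 fold changes were -0.0059 for Sdhc, with a 95% interval from -0.13 to 0.12, and -0.0033 for Sdhd, with a 95% interval from -0.10 to 0.10.

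Against the mean log2 level of the 4 subunits in the same library, Sdha was at 1.08, 1.11 and 1.08 in the controls and at 1.00, 1.02 and 0.98 in the knockout libraries. The groups did not overlap on this measure, with a difference of -0.09 that ran from -0.10 to -0.08 when 1 library was left out. The other 3 subunits overlapped, with differences of 0.06 for Sdhb, 0.01 for Sdhc and 0.02 for Sdhd. The mean includes Sdha itself, so the 4 differences are not independent.

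**Figure D3:**
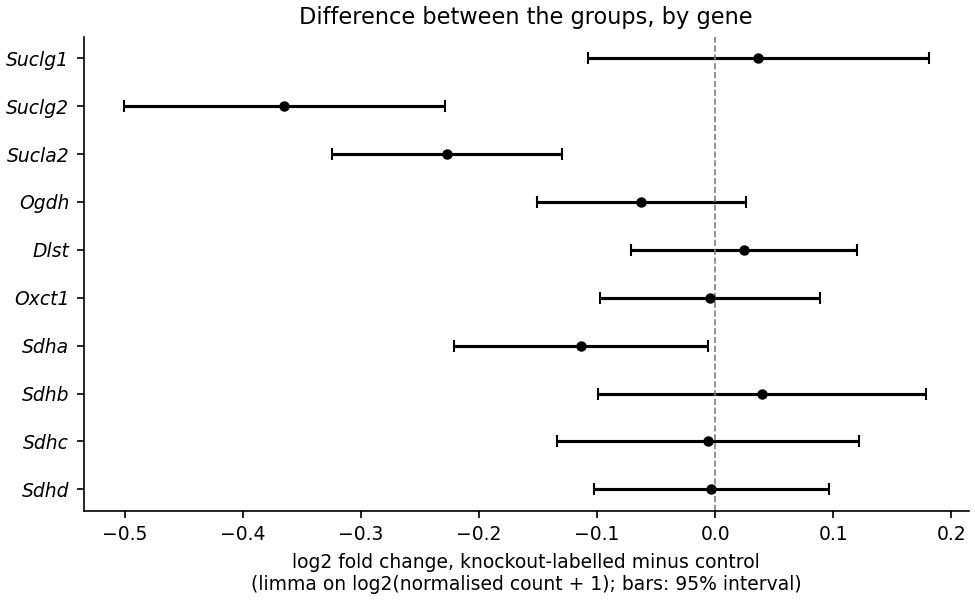
Log2 fold change of each gene, knockout minus control, from limma on log2(normalised count + 1), with 95% intervals as bars (n = 3 libraries per group). The intervals of Suclg2, Sucla2 and, narrowly, Sdha lie below 0, and those of the other 7 genes include 0.

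Over the 10 genes, 7 had a fold change below 0 and 3 above, with a median of -0.0053, beside 0.00056 over all 18250 tested features. The groups did not overlap in 3 genes, Suclg2, Sucla2 and Ogdh, all lower, where 4.9% of all tested features had lower groups without overlap. At an unadjusted limma p under 0.05, 3 genes were lower, Suclg2, Sucla2 and Sdha, and 0 were higher, against 1.98% of tested features that were lower at that level. With Benjamini-Hochberg adjustment over all tested features at 0.05, limma called 0 of the 10 genes, where 0.0219% of features were called. edgeR's quasi-likelihood test on recovered reads also called 0 of 10 at an adjusted p under 0.05, where 0.0274% of features were called. The authors' deposited table called 2 of the 10, Suclg2 and Sucla2, both lower, where 0.384% of the 7550 features with an adjusted p were called lower, and DESeq2 on recovered reads called the same 2 against the same 0.384%. Since the genes were picked with this contrast in view, nothing is read from these counts.

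The tools placed the same fold changes on different sides of the threshold. For Suclg2 the adjusted p was 0.0911 in limma, 0.113 in edgeR and 0.00143 in the authors' deposited table. For Sucla2 these were 0.187, 0.381 and 0.0167. By its p-value Suclg2 ranked 10th and Sucla2 23rd in the authors' deposited table, while Sdha ranked 346th and the other 7 genes further down.

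Between 1073 reads, for Suclg2 in knockout 501, and 24916 reads, for Ogdh in control 490, lay on each gene in each library. Counting error was 2.65% of the level for Suclg2, 1.65% for Sucla2 and 0.681% for Ogdh in a typical library. The spread between the controls was 7.63% for Suclg2 and 1.91% for Sucla2 (SD as a percentage of the mean, n = 3), and that between the knockout libraries 1.95% and 1.58%. In both genes the knockout spread lay below counting error, so it is a poor gauge of the gap between the groups. For Suclg1, Sdhb and Sdhc the spread within a group was 5.47% to 8.18%, above their counting error of 1.63% to 2.70%, so a shift of a few percent could not be seen in them.

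Some libraries were high or low across the genes within their group. Of the 10 genes, 9 lay above the group mean in control 490 and 9 in knockout 492, while 3 did so in control 502 and 1 in knockout 499. Leaving out a library moved Suclg2 from -0.43, without control 502, to -0.33, without control 498, and Sucla2 from -0.24 to -0.21. Sdha ran from -0.16 without knockout 492 to -0.09 without control 490. The sign of Suclg1, Sdhb, Sdhc, Sdhd and Oxct1 turned in at least 1 of these fits, while that of Suclg2, Sucla2, Ogdh, Sdha and Dlst did not. Under equal totals, which moved the median of all tested features by about -0.07, Suclg1, Dlst and Sdhb also turned negative, and Oxct1, Sdhc and Sdhd turned positive with equal totals outside mtDNA.

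**Figure D4:**
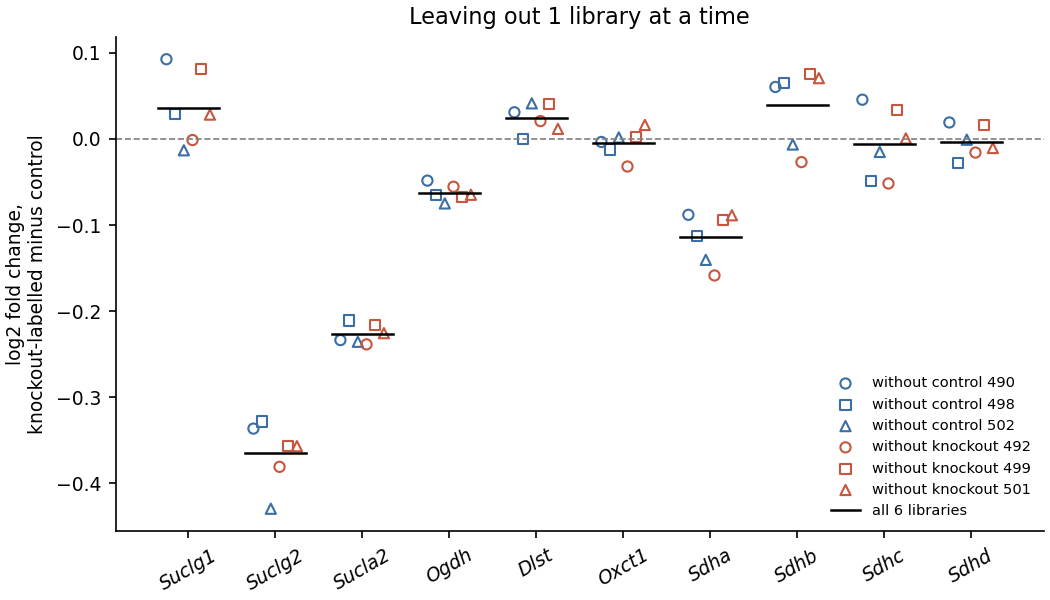
Log2 fold change of each gene (vertical axis, knockout minus control) with all 6 libraries (black line) and with each library left out in turn (open symbols, blue where a control and red where a knockout library was left out). Suclg2 stays between -0.43 and -0.33 and Sucla2 between -0.24 and -0.21, while the symbols of Suclg1, Sdhb, Sdhc, Sdhd and Oxct1 fall on both sides of 0.

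The neighbouring pathways were followed in lists drawn up by function. Among other genes of the routes that make succinyl-CoA, limma called 0 of 10 tested genes, with a median log2 fold change of 0.01. Mmaa, which helps load the cobalamin cofactor of methylmalonyl-CoA mutase, was at -0.13 without overlap, and the mutase gene Mut itself at 0.04 with overlap. In that list 2 genes were lower without overlap, Mmaa and Pccb (-0.12), and 1 was higher, Dld. Of all tested features, 4.9% were lower without overlap. The list of succinyl-CoA users also holds Acat1, Bdh1 and Sirt5, which act in linked steps and do not use succinyl-CoA themselves. Of its 6 tested genes 0 were called, with a median of -0.03. Alas1, which starts haem synthesis from succinyl-CoA and glycine, was at -0.07, and Sirt5, which removes succinyl groups from proteins, at -0.10, both with overlap.

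Among succinate sources, carriers and assembly factors of succinate dehydrogenase, limma called 0 of 7 tested genes, with a median of -0.02. Sdhaf2, which helps attach FAD to Sdha, was at 0.07 with overlap, and Abat, the first enzyme of the GABA route to succinate, at 0.20 with overlap. Aldh5a1, which ends that route by making succinate, was at -0.05 with overlap. Sdhaf1, another assembly factor, was lower without overlap at -0.06, as were 4.9% of all tested features. The succinate receptor gene Sucnr1 was not tested, with at most 5.68 normalised counts in a library.

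Of the rest of the TCA cycle and pyruvate dehydrogenase, limma called 1 of 11 tested genes, Pdha1, with a median of 0.0042. Its neighbours in the cycle stayed near 0, with Cs, citrate synthase, at -0.06, Fh1, the fumarase that takes the product of succinate dehydrogenase, at -0.0041, and Mdh2, malate dehydrogenase, at 0.03. The call of Pdha1 was lost without control 498 or 502 or without knockout 499 or 501. Of the branched-chain 2-oxoacid dehydrogenase genes, relatives of the oxoglutarate complex, 0 of 5 were called, with a median of 0.03, Bckdha at -0.09 and its kinase Bckdk at -0.07.

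Dlst needs lipoic acid and Sdhb needs iron-sulphur clusters, and of 14 tested genes that supply these limma called 0, with a median of -0.01. The 2 members of smallest p were both lower. Iscu, the scaffold on which iron-sulphur clusters are built, was measured at 582, 543 and 570 normalised counts in the controls and at 460, 479 and 484 in the knockout libraries, a log2 difference of -0.25 (SE 0.070), for which limma gave 0.817 as adjusted p. Bola3, which acts in cluster delivery to lipoate synthase, was measured at 674, 642 and 690 in the controls and at 585, 554 and 592 in the knockout libraries, a log2 difference of -0.21 (SE 0.067). Both had groups that did not overlap. Nfs1, the cysteine desulphurase of the pathway, named here after its values were seen, was at -0.13 without overlap.

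Succinyl-CoA synthetase is known to associate with mitochondrial nucleoside diphosphate kinase, and of 8 tested genes of mitochondrial nucleotide supply limma called 0, with a median of 0.02. Pck2, which uses mitochondrial GTP, was at 0.15 and Nme6 at 0.15, both with overlap. Nme4, a mitochondrial nucleoside diphosphate kinase, held between 31.1 and 59.6 normalised counts per library, with overlap and a log2 fold change of -0.10. At an unadjusted p under 0.05, limma had 0 genes in 5 of the 7 lists, 1 lower among the rest of the TCA cycle and 2 lower in the lipoylation and iron-sulphur list, beside 1.98% of all tested features that were lower at that level.

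**Figure D5:**
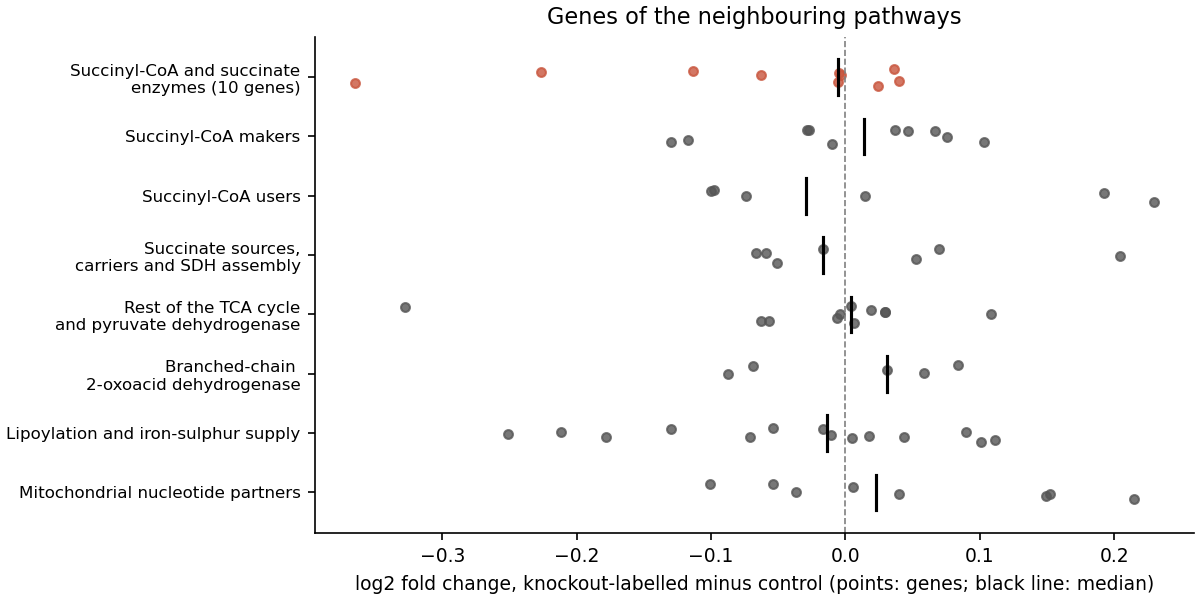
Log2 fold change (horizontal axis, knockout minus control) of every tested gene of the 10 succinyl-CoA and succinate genes (red) and of the 7 neighbouring lists (grey); black lines are medians. The medians of all 8 rows lie between -0.03 and 0.03. Single genes such as Suclg2, Pdha1, Iscu, Sucla2 and Bola3 lie at the left edge, and Bdh1, Nme3, Abat and Sugct at the right edge.

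The features most like Sucla2 over the 6 libraries were Phyh, a peroxisomal hydroxylase of phytanic acid (Pearson r 0.995 on the log2 scale), Ghitm, of the inner mitochondrial membrane (0.992), and Pdk1, a kinase that inhibits pyruvate dehydrogenase (0.991). Those most like Suclg2 were Ankrd46 (0.992), Zdhhc3 (0.991) and Atp6ap1 (0.990). The comparison covered 11176 features with a mean of at least 50 and a symbol, leaving out Gm numbers and Rik names. Of these, 37 reached an r over 0.95 with Sucla2 and 34 with Suclg2. The 6 libraries form 2 groups, so a high r largely restates a gap between them, and all 6 named features were lower in the knockout libraries without overlap, by -0.67 for Ghitm, -0.29 for Phyh, -0.24 for Pdk1, -0.18 for Atp6ap1, -0.16 for Zdhhc3 and -0.11 for Ankrd46.

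Neighbouring genes on the chromosome were read from the RefSeq annotation, since the sources used here do not say whether reads were assigned by strand. No RefSeq gene overlaps Suclg2, Sucla2, Sdha, Sdhb or Sdhd. Dlst overlaps one end of Prox2, which held 33.7 normalised counts on average, and Oxct1 overlaps the long noncoding RNA BC037032, at 196. Ccdc127 begins 76 bases beyond Sdha and Timm8b 51 bases beyond Sdhd. They stood at 0.06 (SE 0.059) and 0.07 (SE 0.063), both higher in the knockout libraries without overlap. Pdcd6, on the other side of Sdha at 4928 bases, was at 0.17 (SE 0.089), also higher without overlap. So was Plcxd3, 220146 bases beyond Oxct1, at 0.55 (SE 0.36) with a mean of 13.8 normalised counts. The other measured neighbours overlapped. The share of all features higher without overlap was not computed, so nothing is read from these neighbours. The sources used here also do not say how reads shared with near-identical copies elsewhere in the genome were assigned.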

How the data were processed

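Total RNA of mouse heart in 6 libraries (ribosomal RNA depleted, random hexamer priming, per the labels' protocols) was analysed; the 6 libraries of mitochondrial RNA ends were not used here. The authors deposited normalised counts per gene, a signal in which each library's reads are divided by 1 factor. The submitters' processing notes name, without roles, DESeq2 1.22.2 in R 3.5.2, featureCounts, Bowtie2 2.3.4.1 and bedtools, with mm10 and GRCm38 as builds. Their deposited comparison table gives log2 fold changes and p-values, and a missing adjusted p was kept as missing. Columns were assigned to groups by name; they carry no replicate number.

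Symbols were joined by Ensembl identifier without version (54686 of 54715), taking the row of highest mean. Dividing by the value of 1 read gave whole numbers for 100% of 156689 nonzero values (tolerance 0.01). limma 3.58.1 with a trended prior was run on log2(value + 1) for features with a mean of at least 10, 2-sided, with Benjamini-Hochberg adjustment over all 18250 tested features, in R 4.3.3. edgeR 4.0.16 (5 features called) and DESeq2 1.42.0 (33 called) were run on recovered reads. The fits were also run on simulated counts with the same dispersion for every gene, unlike the genes here, whose spread differed. Alternatives covered pseudocount, filter, scaling, prior, tool and each library left out.

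The genes, the lists and the naming rule were chosen with earlier results of these data known. Named are the 10 genes, per list the called members or the 2 of smallest p, and the 3 features most like Suclg2 and Sucla2; other list members are named for their role and after their values were seen, as are the chromosomal neighbours. The promoter motifs were chosen after the data were seen.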

Additional observations from a re-analysis of the deposited data

How the results depend on the processing

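No paired analysis was possible because the table's columns carry library numbers and not the replicate numbers of the labels. The labels also name no pairs of control and knockout libraries. The count of the 10 genes called was 0 in limma and 1 without a filter on low values or with robust moderation (Suclg2 in both), and 2 under equal totals, with DESeq2 on recovered reads and in the authors' deposited table (Suclg2 and Sucla2 in each). It was 0 whichever library was left out. Over all features the 4 limma calls became 12 without a filter, 12 with robust moderation, 37 under equal totals, 0 without a trended prior, 33 with DESeq2 and 33 in the authors' deposited table, and between 1 and 8 without 1 library. Under equal totals the median of the 10 genes was -0.075 and Sucla2 was at -0.30; with equal totals outside mtDNA Sucla2 was at -0.20. In the list of the rest of the TCA cycle the 1 call became 0 without a trended prior and with edgeR, and 0 to 1 without 1 library. The count of genes whose groups do not overlap ran from 3 to 5 without 1 library, with Sdha and Oxct1 added without knockout 492 and Sdha without control 502; over all tested features the share lower without overlap was then 10.8% and 9.44%, against 4.9% with all libraries. Suclg2 and Sucla2 kept a negative sign in all alternatives run. Where the alternative does not itself change the scale or the prior, the cause was not tested. The order of levels per length was not run, as no exonic lengths were used here. The spread between libraries, larger than counting error in Suclg1, Sdhb and Sdhc, limits shifts of a few percent in them.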
